A study of Mus musculus with 14 samples.

Results

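The genes described here are 10 direct transcriptional targets of p53, measured by RNA sequencing in mouse embryonic fibroblasts that have or lack SirT7 and were kept with or without glucose. They are Mdm2, Ccng1, Cdkn1a, Zmat3, Sesn1, Trp53inp1, Bbc3, Perp, Aen and Phlda3, found by symbol among the 24015 symbols of the deposited count table. All 10 passed the filter on low counts, which left 15666 genes for testing. SirT7 belongs to the sirtuins, enzymes that consume NAD, and the study's question is what its absence does to cells starved of glucose. The 4 groups were SirT7-/- cells kept for 18 h without glucose (KO-GS, n = 3), SirT7-/- cells in normal medium (KO-NT, n = 4), wild-type cells kept for 18 h without glucose (WT-GS, n = 3) and wild-type cells in normal medium (WT-NT, n = 4). Every group was of strain 129s2, came from embryos of day 14.5 and was at passages 3 to 4. The labels do not say how many embryos or cell preparations stand behind a group, so the p-values below measure the spread between these libraries, which may be technical.

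p53, the product of Trp53, is a transcription factor that cells keep scarce through Mdm2, a ubiquitin ligase that marks p53 for degradation. Damage to DNA, loss of nutrients and other stresses slow that degradation, and p53 then binds its response elements and raises genes that halt the cell cycle, repair DNA, adjust metabolism or start apoptosis. Mdm2 is itself one of these genes, which closes a feedback loop. In fibroblasts the pathway is best known for the growth arrest and senescence that follow damage and long culture. It is governed largely at the level of p53 protein, which RNA counts do not measure.

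Levels are given in CPM, a gene's count scaled to a common total per library, and the library totals ran from 59788270 to 91607861 counts per library. CPM is not corrected for gene length, so levels are compared between groups and not between genes. Sirt7 had 0.301, 0.475 and 0.393 CPM in KO-GS 1 to 3 and 1.02, 1.39, 1.41 and 0.557 CPM in KO-NT 1 to 4, against 17.6, 17.3 and 16.9 CPM in WT-GS 1 to 3 and 17.9, 23.1, 21.4 and 18.7 CPM in WT-NT 1 to 4. The genotype labels were thus borne out, but 2 medium labels were not. Hspa5, a chaperone of the endoplasmic reticulum that rises without glucose, had 6251 and 5654 CPM in KO-GS 1 and 2 but 1067 CPM in the library labelled KO-GS 3. It had 1556, 1437 and 1457 CPM in KO-NT 1 to 3 but 6333 CPM in the library labelled KO-NT 4. Txnip, which falls without glucose, placed the same libraries the same way, at 118 CPM in KO-GS 3 and 5.53 CPM in KO-NT 4. Both libraries therefore lie with the other medium, and results for the 10 genes are given with all 14 libraries and without these 2. All 9 fibroblast markers were detected in every library, with sums of 25860 to 42620 CPM in KO-GS, 28020 to 50200 CPM in KO-NT, 24170 to 26090 CPM in WT-GS and 43160 to 50650 CPM in WT-NT. Without the 2 libraries the fibroblast sums were 25860 to 26140 CPM in KO-GS and 43070 to 50200 CPM in KO-NT, so in both genotypes they were lower without glucose. The 4 endothelial markers summed to 15.03 to 20.59 CPM in KO-GS, 7.748 to 13 CPM in KO-NT, 13.8 to 18.2 CPM in WT-GS and 4.432 to 15.34 CPM in WT-NT. These sums were mainly Kdr, with a median of 12.9 CPM over the libraries. Pecam1 and Cdh5 had medians of 0.123 and 0.306 CPM, and Tie1 was at 0 in 10 libraries. Macrophage markers were also present, with sums of 107 to 981 CPM in KO-GS, 353 to 638 CPM in KO-NT, 13.1 to 329 CPM in WT-GS and 274 to 1745 CPM in WT-NT. The part of these marker levels in the results below was not tested.

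p53 binds a pair of 10-base elements, and 7 of the 10 genes had promoter sequences in RefSeq (GRCm38.p6, 12 promoters of 300 bases, from 250 bases before the start to 50 after it). Those without an entry were Zmat3, Trp53inp1 and Perp. Each promoter was searched for the p53 response element consensus, with a gap of 0 to 13 bases between the elements and the central C and G of each element required. The consensus reads the same on both strands. Sequences are shown for the 3 genes with the closest matches, with the paired elements in capitals and 30 bases on either side. They lie at chr17:29090876-29090967 on the plus strand for Cdkn1a, at chr11:40755432-40755511 on the minus strand for Ccng1 and at chr10:41887223-41887305 on the plus strand for Sesn1, each before a RefSeq start and outside the transcript that begins there.
Cdkn1a: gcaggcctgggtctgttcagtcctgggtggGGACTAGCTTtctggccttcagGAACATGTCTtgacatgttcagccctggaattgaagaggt
Ccng1: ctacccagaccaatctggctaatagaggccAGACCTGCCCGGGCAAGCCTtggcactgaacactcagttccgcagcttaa
Sesn1: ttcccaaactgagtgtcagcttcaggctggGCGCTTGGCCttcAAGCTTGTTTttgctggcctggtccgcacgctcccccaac

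The Cdkn1a elements met the consensus with 0 mismatches and a gap of 12 bases, 73 to 42 bases before the upstream of its RefSeq starts, and 24 of 32851 RefSeq promoters (0.0731%) held such a match. The pair in capitals is the one with the fewest mismatches. The bases tgacatgttc, in lower case directly after GAACATGTCT, also form an element, with 1 mismatch at the first base. GAACATGTCT thus has an adjoining partner as well, and the search does not tell which pair p53 binds. The Ccng1 elements adjoined each other, 195 to 176 bases before the start, with 1 mismatch, a closeness reached by 0.627% of promoters. The Sesn1 match, before the second of its starts, had 2 mismatches and a gap of 3 bases, and 4.09% of promoters did as well. The best matches of the remaining genes had 3 mismatches in Bbc3 and Aen, 4 in Mdm2 and 5 in Phlda3. Of all promoters, 15.6% had a match with at most 3 mismatches, 40.4% with at most 4 and 68.7% with at most 5. These shares are per promoter, whereas a gene with several starts was given its best match. The other promoters of Cdkn1a and Sesn1 had 5 mismatches. Binding was not measured in these samples.

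The first question is how the 10 genes responded to 18 h without glucose in each genotype. Mdm2 was higher in both genotypes, and once the 2 doubtful libraries were out it kept its call in every fit that left out 1 more library. Perp, a membrane protein of desmosomes, had the largest fold, and Sesn1, a stress-induced inhibitor of growth signalling, was lower in wild-type cells. Cdkn1a, Ccng1 and Trp53inp1 had higher averages without glucose in both genotypes, and Zmat3 in SirT7-/- cells. With all libraries edgeR called none of the 4 in either genotype. Without the 2 it called only Zmat3 of the 4, in SirT7-/- cells. Bbc3, a trigger of apoptosis, had lower averages in both genotypes, and edgeR called it in neither with all libraries or without the 2. Aen and Phlda3 were nearly level.

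Calls come from edgeR's quasi-likelihood test at an adjusted p under 0.05 (Benjamini-Hochberg, over all genes tested). For KO-GS against KO-NT, edgeR called 0 of the 10 genes with all libraries, where it called 0 of 15666 genes (0%). At an unadjusted p under 0.05 it found 7 of the 10 genes, 6 of them higher, and 2919 of all genes (18.6%), and DESeq2 called 0 of the 9 members to which it gave an adjusted p. Without KO-NT 4 and KO-GS 3, edgeR called 3 of the 10 genes, all higher, against 33.1% of 15864 genes called (18.6% higher, 14.5% lower). For WT-GS against WT-NT, edgeR called Mdm2 higher and Sesn1 lower with all libraries, against 25.9% of all genes called (12.9% higher, 13.1% lower). Without KO-NT 4 and KO-GS 3 it called Mdm2 and Perp higher and Sesn1 lower, against 39.6% of all genes (20.4% higher, 19.1% lower). Shares of 20% higher and 10% lower in wild-type cells are close to or under those of the whole table, so these counts say nothing particular to the list.

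WT-NT 4 weighed on the remaining calls. Leaving it out alone gave calls in wild-type cells for Ccng1 at 0.55 (adjusted p = 0.0394), Cdkn1a at 0.66 (adjusted p = 0.0339) and Trp53inp1 at 0.90 (adjusted p = 0.0437), but not for Zmat3 at 0.28 (adjusted p = 0.115). With WT-NT 4 kept, a replicate block over all 14 libraries called Cdkn1a (adjusted p = 0.00454) and Trp53inp1 (adjusted p = 0.0115) there. Without it and the 2 doubtful libraries, edgeR called 6 of the 10 genes higher and 0 lower in KO-GS against KO-NT, where 39.9% of 15754 genes were called (22.1% higher, 17.8% lower). In WT-GS against WT-NT it called 6 higher and 1 lower, where 47.3% of all genes were called (24.4% higher, 22.9% lower). The 6 genes were Mdm2, Ccng1, Cdkn1a, Zmat3, Trp53inp1 and Perp in both genotypes. The median log2 change of the 10 genes was 0.60 in SirT7-/- cells and 0.43 in wild-type cells, and that of all genes tested was 0.03 and -0.01. With all libraries the members' medians were 0.58 and 0.20, beside 0.01 and -0.04 over all genes. WT-NT 4 had the Hspa5 and Txnip levels of normal medium, and its omission was chosen with its high values of these same genes known. The counts and medians without WT-NT 4 are shaped by that choice. Setting them beside the values of all genes is therefore no independent test of the list.

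**Figure D1:**
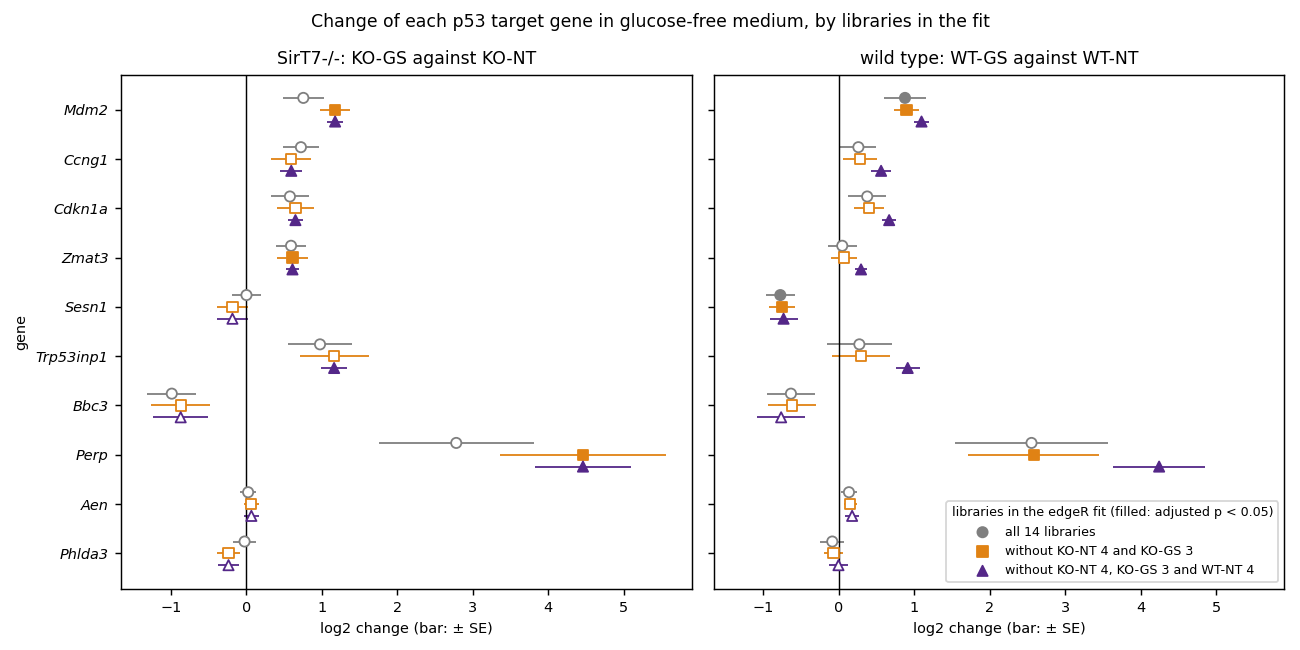
Log2 change of each p53 target gene in glucose-free against normal medium, in SirT7-/- cells (left) and wild-type cells (right), with the SE as a bar; circles are the fit on all 14 libraries, squares the fit without KO-NT 4 and KO-GS 3, triangles the fit without these and WT-NT 4, and filled symbols have an adjusted p under 0.05. Mdm2 is filled in 5 of 6 cases, and Perp has the widest bars.

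The feedback genes come first. Mdm2, the ligase that degrades p53, had 293, 284 and 276 CPM in KO-GS 1 to 3 and 121, 122, 139 and 283 CPM in KO-NT 1 to 4. Wild-type libraries had 335, 331 and 312 CPM in WT-GS 1 to 3 and 179.7, 139.5, 154 and 260.2 CPM in WT-NT 1 to 4. In wild-type cells the groups did not overlap, as was so for 44.6% of all genes in either direction, while in SirT7-/- cells KO-NT 4 lay among the starved libraries. The order of the group means was WT-GS, KO-GS, WT-NT and KO-NT, and the lower pair did not differ beyond their spread. The log2 change in SirT7-/- cells was 0.76 (SE 0.27, adjusted p = 0.233) with all libraries and 1.176 (SE 0.20, adjusted p = 0.00141) without the 2. The wild-type log2 change was 0.88 (SE 0.27, adjusted p = 0.037) and 0.90 (SE 0.16, adjusted p = 0.00167). With the 2 libraries left out, Mdm2 stayed called in both genotypes when any 1 of the remaining 12 libraries was also removed. With them kept, its call in wild-type cells was lost without any 1 of WT-GS 1 to 3 or WT-NT 1 to 3, at an adjusted p of up to 0.0993. Of all genes, 0% were called there without WT-GS 1, WT-GS 2 or WT-NT 3 and 0.00628% without WT-GS 3. The shares were 8.77% without WT-NT 1 and 13.2% without WT-NT 2.

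Ccng1 encodes cyclin G1, which recruits a phosphatase to Mdm2. It had 560.1, 746 and 957 CPM in KO-GS and 415, 417, 467 and 504 CPM in KO-NT, with no overlap. The wild-type values were 712, 733 and 629.6 CPM in WT-GS and 542, 425, 490.0 and 932 CPM in WT-NT, where WT-NT 4 exceeded every starved library. The highest library of all was KO-GS 3. The log2 change was 0.72 (SE 0.24, adjusted p = 0.227) in SirT7-/- cells and 0.26 (SE 0.24, adjusted p = 0.421) in wild-type cells, and neither passed the test. Without KO-NT 4 and KO-GS 3 the values were 0.59 (SE 0.26, adjusted p = 0.108) and 0.28 (SE 0.22, adjusted p = 0.337), again not called. Without KO-NT 4, KO-GS 3 and WT-NT 4, values of 0.60 (SE 0.15, adjusted p = 0.00967) and 0.56 (SE 0.13, adjusted p = 0.0068) were called.

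**Figure D2:**
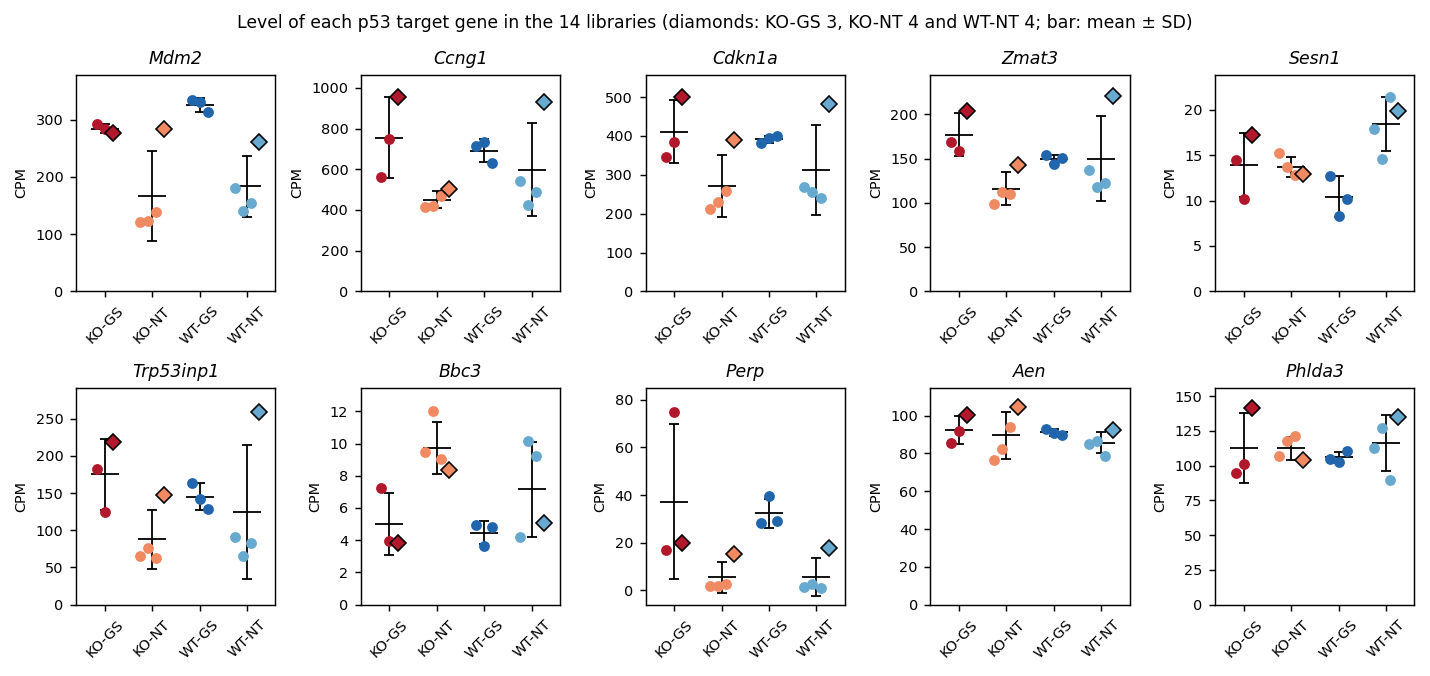
Level in CPM (linear axis) of each of the 10 genes in KO-GS, KO-NT, WT-GS and WT-NT; each point is 1 library, diamonds are KO-GS 3, KO-NT 4 and WT-NT 4, and bars give the mean ± SD. WT-NT 4 stands above the other WT-NT libraries in Mdm2, Ccng1, Cdkn1a, Zmat3, Trp53inp1 and Perp, and by less in Aen and Phlda3.

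Cdkn1a and Zmat3 act in arrest and RNA control. Cdkn1a encodes p21, an inhibitor of cyclin-dependent kinases, and had 346, 386 and 501 CPM in KO-GS and 213, 229, 257 and 389 CPM in KO-NT. In wild-type cells Cdkn1a had 382, 394 and 399.8 CPM in WT-GS and 269, 257, 239 and 483 CPM in WT-NT. The starved wild-type libraries lay within 20 CPM of each other, and WT-NT 4 stood above all of them. The group means were ordered KO-GS, WT-GS, WT-NT and KO-NT, at 411 ± 80.7 CPM, 392 ± 9.14 CPM, 312 ± 115 CPM and 272 ± 80.1 CPM (SD, n = 3, 3, 4 and 4), with neighbours closer than their spread. The log2 change was 0.58 (SE 0.25, adjusted p = 0.256) in SirT7-/- cells and 0.38 (SE 0.25, adjusted p = 0.265) in wild-type cells. Without KO-NT 4 and KO-GS 3 it was 0.65 (SE 0.24, adjusted p = 0.0595) and 0.40 (SE 0.20, adjusted p = 0.141), and neither was called. Without WT-NT 4 as well, both were called, at 0.65 (SE 0.10, adjusted p = 0.000989) and 0.67 (SE 0.09, adjusted p = 0.000367). Reads of Cdkn1a and of an overlapping unnamed transcript on the opposite strand cannot be told apart here, since no strand setting is stated.

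Zmat3 encodes a zinc finger protein that binds RNA and controls splicing and messenger stability. It had 169, 158 and 204 CPM in KO-GS and 98.8, 112, 110.0 and 142 CPM in KO-NT, with no overlap. Its wild-type levels were 154, 144 and 150.2 CPM in WT-GS and 137, 118, 123 and 221 CPM in WT-NT, where WT-NT 4 was the highest of all 14. Its log2 change in SirT7-/- cells was 0.59 (SE 0.19, adjusted p = 0.227) with all libraries and 0.61 (SE 0.21, adjusted p = 0.0418) without the 2. That call rested on single libraries: it held in 3 of 12 fits that left out 1 more library, and the adjusted p reached 0.168 without KO-GS 1. In wild-type cells the change was 0.04 (SE 0.19, adjusted p = 0.879) with all libraries, 0.06 (SE 0.17, adjusted p = 0.793) without the 2 and 0.29 (SE 0.08, adjusted p = 0.00983) without all 3.

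Sesn1 and Trp53inp1 act in the response to stress. Sesn1 encodes a sestrin, which restrains the growth kinase mTORC1 and limits oxidants. It had 14.4, 10.2 and 17.2 CPM in KO-GS and 15.2, 13.8, 12.8 and 12.9 CPM in KO-NT, with full overlap. In wild-type cells Sesn1 had 12.8, 8.33 and 10.2 CPM in WT-GS and 17.9, 14.5, 21.5 and 19.9 CPM in WT-NT, with no overlap. Its group means were ordered WT-NT, KO-GS, KO-NT and WT-GS, and the SirT7-/- groups between the wild-type ones differed by less than their spread. In wild-type cells the log2 change was -0.78 (SE 0.20, adjusted p = 0.0246) with all libraries and -0.76 (SE 0.17, adjusted p = 0.00557) without the 2. With the 2 libraries left out, the call held in all 12 fits that left out 1 more library. With all libraries the call was lost without WT-GS 1, WT-GS 2, WT-GS 3 or WT-NT 3, at an adjusted p of up to 0.0793. Nearly every gene lost its call in those fits: 1 of all genes was called without WT-GS 3 (0.00628%) and 0 (0%) without each of the others. In SirT7-/- cells the change was 0.00 (SE 0.19, adjusted p = 0.997) with all libraries and -0.19 (SE 0.20, adjusted p = 0.516) without the 2. The difference between the genotypes' responses, SirT7-/- minus wild type, was 0.78 (SE 0.27, adjusted p = 0.68) and 0.57 (SE 0.26, adjusted p = 1), so a difference of the responses was not shown. An unnamed transcript overlaps Sesn1 on the same strand, and its reads could not be separated.

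Trp53inp1 encodes a nuclear protein that promotes phosphorylation of p53 and autophagy. It had 182, 125 and 219 CPM in KO-GS and 64.8, 76.8, 63.0 and 147 CPM in KO-NT, where KO-NT 4 lay among the starved libraries. The wild-type levels of Trp53inp1 were 164, 143 and 129 CPM in WT-GS and 90.9, 65.0, 83.4 and 259 CPM in WT-NT. WT-NT 4 was the highest of all 14 libraries and nearly 3 times the next of its group. The log2 change in SirT7-/- cells was 0.98 (SE 0.43, adjusted p = 0.257) with all libraries and 1.16 (SE 0.46, adjusted p = 0.0728) without the 2. In wild-type cells Trp53inp1 changed by 0.27 (SE 0.43, adjusted p = 0.647) and 0.30 (SE 0.38, adjusted p = 0.564), and 0.91 (SE 0.16, adjusted p = 0.00124) once WT-NT 4 was left out too.

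Of the genes of cell death and survival, Bbc3 encodes PUMA, which frees the executioners of apoptosis by binding their inhibitors. It was scarce, at 7.21, 3.97 and 3.82 CPM in KO-GS and 9.48, 12.013, 9.02 and 8.35 CPM in KO-NT, with no overlap. In wild-type cells Bbc3 had 4.95, 3.65 and 4.82 CPM in WT-GS and 4.23, 10.2, 9.20 and 5.08 CPM in WT-NT, with overlap through WT-NT 1. Its log2 change was -0.99 (SE 0.33, adjusted p = 0.227) in SirT7-/- cells and -0.64 (SE 0.32, adjusted p = 0.147) in wild-type cells, opposite in sign to Mdm2. It was called in SirT7-/- cells when KO-NT 4 alone was left out, at -1.06 (adjusted p = 0.0487). Without both doubtful libraries edgeR called it in neither genotype, at -0.87 (adjusted p = 0.11) and -0.62 (adjusted p = 0.147). DESeq2 without these libraries called Bbc3 lower in SirT7-/- cells, at -0.90 (adjusted p = 0.0499), and not in wild-type cells, at -0.63 (adjusted p = 0.0992).

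Perp encodes a membrane protein of desmosomes, junctions that hold epithelial cells together, and is also induced in p53-driven apoptosis. It had 17.1, 74.9 and 19.9 CPM in KO-GS and 1.88, 1.88, 2.56 and 15.4 CPM in KO-NT. In wild-type cells Perp had 28.4, 39.4 and 29.3 CPM in WT-GS and 1.59, 2.83, 0.824 and 17.6 CPM in WT-NT. The groups did not overlap in either genotype, as was so in wild-type cells for 44.6% of all genes. For SirT7-/- cells no such share was worked out, here or for Ccng1, Zmat3 and Bbc3. The groups labelled KO-GS and KO-NT include the 2 doubtful libraries, and Perp in KO-NT 4, at 15.4 CPM, lay close under KO-GS 1, at 17.1 CPM. The 6 libraries KO-NT 1 to 3 and WT-NT 1 to 3 stayed under 3 CPM, and the other 8 exceeded 15 CPM. DESeq2 gave Perp no p-value in any comparison, with all libraries or without the 2, so its calls are edgeR's alone. The log2 change in SirT7-/- cells was 2.78 (SE 1.03, adjusted p = 0.234) with all libraries and 4.46 (SE 1.10, adjusted p = 0.0105) without the 2. The wild-type log2 change was 2.55 (SE 1.02, adjusted p = 0.0778) and 2.58 (SE 0.87, adjusted p = 0.0364). Without WT-NT 4 as well it was 4.46 (SE 0.64, adjusted p = 0.000673) and 4.25 (SE 0.61, adjusted p = 0.000514). The call in SirT7-/- cells rested on KO-GS 2, without which it was 2.95 (adjusted p = 0.0892). The call in wild-type cells was lost in 8 of the 12 fits that left out 1 more library.

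Dsp, which encodes the desmosome protein desmoplakin and was singled out after its values were seen, stood beside Perp. It had 8.51, 31.5 and 9.32 CPM in KO-GS and 1.51, 1.61, 1.91 and 6.66 CPM in KO-NT. In wild-type cells Dsp had 11.8, 11.6 and 12.3 CPM in WT-GS and 1.57, 1.28, 1.34 and 8.73 CPM in WT-NT. The 8 libraries high in Perp were the 8 high in Dsp, and KO-GS 2 led in both. Sums of the 8 epithelial markers, Dsp among them, were 17.9 to 44.3 CPM in KO-GS, 11.03 to 14.97 CPM in KO-NT, 16.1 to 21.7 CPM in WT-GS and 6.54 to 15.7 CPM in WT-NT. Without Dsp the other 7 markers summed to 9.39 to 13.01 CPM in KO-GS, 8.31 to 12.49 CPM in KO-NT, 4.34 to 10.12 CPM in WT-GS and 5.26 to 12.14 CPM in WT-NT, which overlap in both genotypes. Cdh1, the cadherin of epithelial junctions, had lower values without glucose, where Perp had higher ones, at 0.301 to 0.406 CPM in KO-GS, 0.415 to 3.48 CPM in KO-NT, 0.212 to 0.351 CPM in WT-GS and 0.467 to 6.35 CPM in WT-NT. Krt8, an epithelial keratin, had 1.68 to 3.35 CPM in KO-GS, 1.39 to 2.57 CPM in KO-NT, 0.248 to 1.66 CPM in WT-GS and 0.67 to 2.12 CPM in WT-NT, with overlap. Krt18, the most abundant of the other 7 markers by median, went with Perp in wild-type cells. It had 2.41 to 2.7 CPM in WT-NT 1 to 3, 5.36 CPM in WT-NT 4 and 3.1 to 4.37 CPM in WT-GS. In SirT7-/- cells Krt18 had 5.48 to 8.58 CPM in KO-GS and 4.1 to 5.74 CPM in KO-NT, with overlap. Krt14 ran from 0 to 3.51 CPM over the libraries. Krt5 was at 0 in all 14 libraries, Epcam in 3 and Trp63 in 5, and a count of 0 allows up to 0.0502 CPM in the shallowest library by counting error alone. In bulk RNA, fewer cells of a type and less RNA per cell cannot be told apart.

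**Figure D3:**
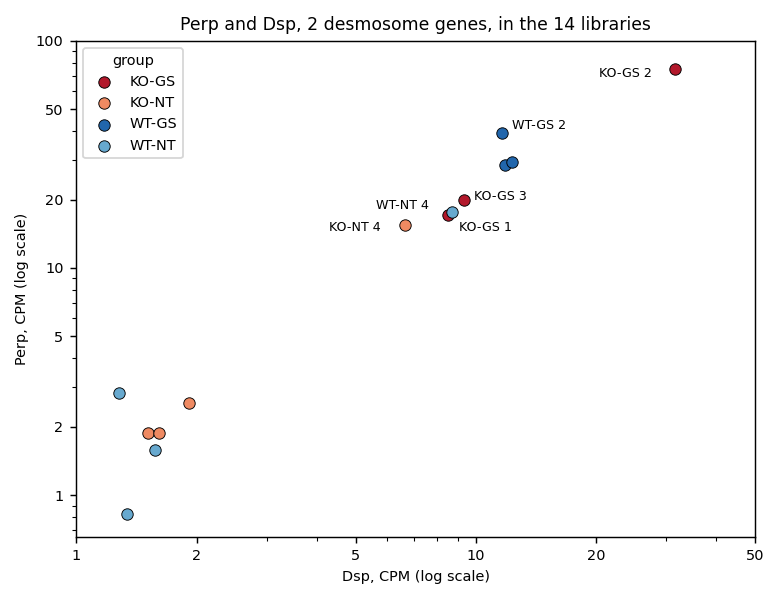
Perp against Dsp, both in CPM on log axes, with 1 point per library coloured by group. KO-NT 1 to 3 and WT-NT 1 to 3 lie at the lower left, under 3 CPM of either gene, and the other 8 libraries at the upper right, with KO-GS 2 at 74.9 CPM of Perp and 31.5 CPM of Dsp.

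Aen encodes a nuclease that digests DNA and RNA in apoptosis, and Phlda3 a membrane-binding protein that restrains the survival kinase Akt. Aen had 85.3, 91.7 and 100.1 CPM in KO-GS and 76.7, 82.4, 94.2 and 105 CPM in KO-NT. In wild-type cells Aen had 92.9, 90.8 and 89.5 CPM in WT-GS and 84.9, 86.4, 78.7 and 92.6 CPM in WT-NT, and its 14 libraries lay between 76.7 and 104.8 CPM. Its log2 change was 0.02 (SE 0.10, adjusted p = 0.911) in SirT7-/- cells and 0.13 (SE 0.10, adjusted p = 0.338) in wild-type cells. Phlda3 had 94.8, 101 and 142 CPM in KO-GS and 107, 118, 121 and 104 CPM in KO-NT. In wild-type cells Phlda3 had 105, 102 and 110.3 CPM in WT-GS and 112, 127, 89.6 and 135 CPM in WT-NT. KO-GS 3 and WT-NT 4 were again the 2 highest. The log2 change of Phlda3 was -0.02 (SE 0.16, adjusted p = 0.941) and -0.09 (SE 0.16, adjusted p = 0.685). Without KO-NT 4 and KO-GS 3, Aen changed by 0.07 (SE 0.10, adjusted p = 0.647) and 0.15 (SE 0.08, adjusted p = 0.176), and Phlda3 by -0.24 (SE 0.15, adjusted p = 0.242) and -0.07 (SE 0.12, adjusted p = 0.67). Neither gene passed the test with all libraries, without the 2 or without the 3, and with all libraries Aen and Phlda3 had the smallest SEs of the 10 genes.

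The 10 genes also varied within groups in a pattern that the medium labels do not give. WT-NT 4 and KO-GS 3, of different genotype, were the highest pair of the 14 libraries for 5 of the 10 genes, namely Ccng1, Cdkn1a, Zmat3, Trp53inp1 and Phlda3. The same was true of 1401 of 15666 genes (8.94%), and this pair was chosen after the values were seen. The median deviation of the 10 genes from their own mean was 0.54 on the log2 scale in WT-NT 4 and 0.44 in KO-GS 3. It was 0.24 in KO-NT 4, 0.09 to 0.17 in KO-GS 1 and 2 and WT-GS 1 to 3, and -0.51 to -0.19 in KO-NT 1 to 3 and WT-NT 1 to 3. Both libraries of the pair had low Hspa5, at 1067 CPM in KO-GS 3 and 1065 CPM in WT-NT 4, yet Sirt7 was at 0.393 and 18.7 CPM. Their high values thus came without the Hspa5 level of the starved libraries. Trp53 itself was not high in them, at 95.5 CPM in KO-GS 3 and 98.4 CPM in WT-NT 4.

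**Figure D4:**
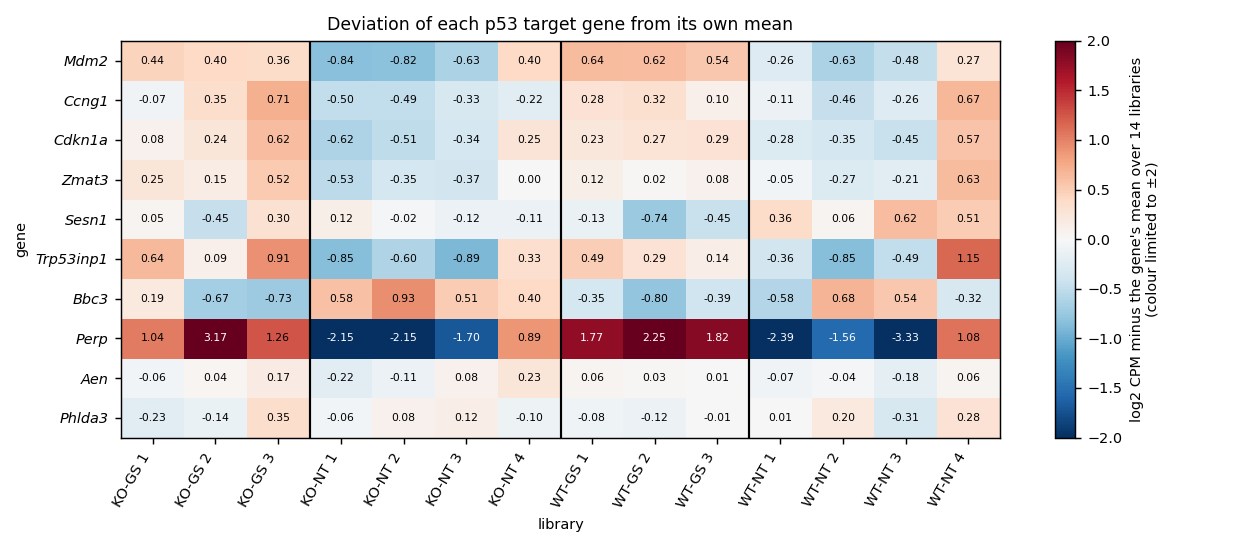
Log2 CPM of each gene minus that gene's mean over the 14 libraries; red is above the mean and blue below, with the colour limited to ±2 and the value printed in each cell. The columns KO-GS 3 and WT-NT 4 are red in 9 of the 10 genes, all but Bbc3.

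The second question is whether loss of SirT7 moved the genes within a medium. No member was called in KO-GS against WT-GS, in KO-NT against WT-NT or in the difference of the responses. With all libraries edgeR called 1 gene in each medium (0.00638%), which was Sirt7 at -5.51 (adjusted p = 1.73e-05) without glucose and -4.18 (adjusted p = 3.21e-05) in normal medium, and 0 genes (0%) in the difference of the responses. At an unadjusted p under 0.05 it found 0, 1 and 1 of the 10 genes, in the order given, beside 3.88%, 4.2% and 6.06% of all genes. DESeq2 called 0 of the 9 members to which it gave an adjusted p in each of the 3 comparisons. Without KO-NT 4 and KO-GS 3, edgeR called 0.0063%, 0.0252% and 0% of 15864 genes, and 0, 3 and 0 members had an unadjusted p under 0.05, all 3 lower in KO-NT, beside 2.19%, 7.92% and 3.30% of all genes.

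Those 3 were Mdm2, Zmat3 and Sesn1. Mdm2 averaged 127 ± 10.014 CPM over KO-NT 1 to 3, against 183 ± 53.8 CPM over WT-NT 1 to 4 (SD, n = 3 and 4), a log2 difference of -0.49 (SE 0.17, adjusted p = 0.567). Zmat3 averaged 107 ± 7.01 CPM over KO-NT 1 to 3, against 149.7 ± 48.0 CPM over WT-NT 1 to 4, a log2 difference of -0.45 (SE 0.18, adjusted p = 0.586). For Sesn1 the difference was -0.38 (SE 0.17, adjusted p = 0.626). WT-NT 4 carried part of the differences: without it Mdm2 had -0.29 (SE 0.10, adjusted p = 0.486) and Zmat3 -0.22 (SE 0.08, adjusted p = 0.503). Sesn1 had -0.35 without it, at an unadjusted p of 0.0878 in edgeR. Trp53inp1 and Perp had larger differences with larger errors, at -0.83 (SE 0.39, adjusted p = 0.634) and -1.39 (SE 0.91, adjusted p = 0.711). The difference for Trp53inp1 was -0.21 (SE 0.16, adjusted p = 0.831) without WT-NT 4, and that for Perp was 0.27 (SE 0.57, adjusted p = 0.951), of the opposite sign. Without glucose and without the 2 libraries, log2 differences of the 10 genes between KO-GS and WT-GS ran from -0.22 (adjusted p = 1) for Mdm2 to 0.49 (adjusted p = 1) for Perp. The SE of the difference of responses was 0.13 for Aen and 1.34 for Perp.

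Trp53 and its other main partner, Mdm4, were not called. Trp53 had 118, 103 and 95.5 CPM in KO-GS and 114, 117, 115 and 137 CPM in KO-NT. In wild-type cells Trp53 had 106, 106 and 123 CPM in WT-GS and 111, 128, 108 and 98.4 CPM in WT-NT. Its log2 change without glucose was -0.22 (SE 0.11, adjusted p = 0.295) in SirT7-/- cells and 0.05 (SE 0.11, adjusted p = 0.752) in wild-type cells, and -0.06 (SE 0.12, adjusted p = 0.717) and 0.06 (SE 0.10, adjusted p = 0.643) without the 2 libraries. Mdm4, a relative of Mdm2 that masks the activation domain of p53, changed by 0.17 (SE 0.18, adjusted p = 0.601) and 0.28 (SE 0.18, adjusted p = 0.244). Without the 2 libraries its values were 0.45 (SE 0.17, adjusted p = 0.061) and 0.30 (SE 0.14, adjusted p = 0.118), and neither was called.

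Likeness to a member was measured as the root mean square difference of log2 CPM, each gene centred on its own mean, over the 14 libraries and 10655 genes with a mean of at least 5 CPM. Nearest to Mdm2 were Ctsl at 0.105, Slc19a2 at 0.123 and Polk at 0.128, where Mdm2 itself varied by 0.551. Ctsl, a lysosomal protease, averaged 929.8 CPM in KO-GS, 542 CPM in KO-NT, 1008 CPM in WT-GS and 623 CPM in WT-NT. Slc19a2 transports thiamine, and Polk copies damaged DNA. Nearest to Cdkn1a were Fbxo25 at 0.117, Aga at 0.129 and Nhsl1 at 0.133, where Cdkn1a varied by 0.397. Aga, a lysosomal hydrolase of glycoproteins, had 43.0 CPM in KO-GS 3 and 46.5 CPM in WT-NT 4, above its means of 38.4 CPM in KO-GS and 32.6 CPM in WT-NT.

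The wider pathway was read from 9 lists of genes, in the fit without KO-NT 4 and KO-GS 3, where 18.6% of all genes were called higher and 14.5% lower in SirT7-/- cells and 20.4% and 19.1% in wild-type cells. With all libraries no gene of any list was called in SirT7-/- cells, as for the whole table. In wild-type cells 48 of the 98 genes tested were called without the 2 libraries, and 32 of these 48 kept the call with all libraries. Leaving out WT-NT 4 as well kept 46 of the 48 and added 12, and the 42 called in SirT7-/- cells all kept their call and 11 were added. Where a gene named below lost its wild-type call in one of these fits, this is stated. Counts are given for SirT7-/- cells first, and log2 changes below are glucose-free against normal medium in the same order.

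Cell cycle genes that p53 represses through p21 and the DREAM complex gave the most uniform list. Of 15 genes, 14 were lower in SirT7-/- cells and 14 in wild-type cells, with medians of -1.33 and -1.29 beside 0.03 and -0.02 over all genes. Plk1, a mitotic kinase, changed by -2.81 (SE 0.29, adjusted p = 0.000105) and -2.61 (SE 0.24, adjusted p = 2.4e-05). The 14 calls in wild-type cells were also made with all libraries. The wild-type level of Plk1 was 7.45 ± 1.52 CPM in WT-GS and 47.1 ± 10.4 CPM in WT-NT (SD, n = 3 and 4). Cdc20, which activates the ligase that ends mitosis, changed by -2.12 and -1.92, the checkpoint kinase Bub1b by -1.88 and -1.96, and the spindle kinase Aurka by -1.64 and -1.67. The gene not called was E2f1. Summed over the list, the level was 360.2 and 493 CPM in KO-GS 1 and 2, 979.9 to 1049 CPM in KO-NT 1 to 3, 347 to 421 CPM in WT-GS and 910.5 to 1033 CPM in WT-NT 1 to 3. KO-GS 3, at 769 CPM, and WT-NT 4, at 721 CPM, lay between the media, and KO-NT 4, at 420.1 CPM, lay among the starved libraries. KO-GS 3 and WT-NT 4 were the highest in Cdkn1a, whereas KO-GS 1 and 2 and WT-GS 1 to 3 had less Cdkn1a and lower sums. Whether p53 or p21 had a part in these sums was not tested.

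Other targets of DNA repair were called higher only or not at all, 4 of 6 in SirT7-/- cells and 3 of 6 in wild-type cells, where all libraries gave 2. Polk changed by 1.35 (SE 0.23, adjusted p = 0.00148) and 1.09 (SE 0.19, adjusted p = 0.00129), and Rrm2b, the p53-inducible subunit of ribonucleotide reductase, by 0.99 (SE 0.21, adjusted p = 0.00481) and 0.95 (SE 0.18, adjusted p = 0.00176). Xpc, which recognises helix-distorting damage, changed by 0.83 and 0.56, the wild-type call being lost with all libraries (adjusted p = 0.1). Mgmt, which removes alkyl groups from guanine, changed by 0.69 (SE 0.20, adjusted p = 0.0234) and 0.38 (SE 0.17, adjusted p = 0.0982), the wild-type value not being called. Without WT-NT 4 as well, edgeR called the wild-type value of Mgmt, at 0.50 (adjusted p = 0.0281).

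Other targets of apoptosis split in direction, with 4 higher and 1 lower of 11 in SirT7-/- cells and 3 higher and 3 lower in wild-type cells, where all libraries gave 2 and 2. Tnfrsf10b, a death receptor, changed by 0.82 (SE 0.15, adjusted p = 0.00215) and 0.69 (SE 0.12, adjusted p = 0.00145), and Bid, which links death receptors to mitochondria, by 0.41 and 0.61. Dram1, a lysosomal regulator of autophagy, was lower, at -1.92 (SE 0.19, adjusted p = 7.51e-05) and -1.57 (SE 0.15, adjusted p = 3.35e-05). Pidd, a scaffold for a caspase, changed by -0.13 (SE 0.18, adjusted p = 0.599), which was not called, and -0.53 (SE 0.15, adjusted p = 0.0172).

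Other targets of cell cycle arrest numbered 9, with 1 higher and 1 lower in SirT7-/- cells and 1 higher and 3 lower in wild-type cells. With all libraries none was called in wild-type cells, at an adjusted p of 0.0649 for Gadd45a, 0.0547 for Gtse1, 0.0748 for Ptprv and 0.115 for Ckap2. Gadd45a, which binds cyclin-dependent kinases and answers to several stress factors, was the 1 higher in both, at 1.79 (SE 0.19, adjusted p = 0.000133) and 1.36 (SE 0.16, adjusted p = 0.000123). It had 96.6 ± 12.7 CPM in WT-GS and 39.3 ± 6.66 CPM in WT-NT (SD, n = 3 and 4). Gtse1, a microtubule-bound protein that moves p53 out of the nucleus, was lower in both, at -0.59 and -0.67. Ptprv, a phosphatase, and Ckap2, a spindle protein, were lower in wild-type cells, at -1.25 (SE 0.38, adjusted p = 0.0242) and -0.54 (SE 0.18, adjusted p = 0.032), and the call of Ckap2 was also lost without WT-NT 4 (adjusted p = 0.0584). In SirT7-/- cells they had -0.62 (SE 0.45, adjusted p = 0.317) and -0.36 (SE 0.21, adjusted p = 0.214).

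Targets of metabolism and redox control gave 2 higher and 1 lower of 11 in SirT7-/- cells and 1 higher and 3 lower in wild-type cells, where all libraries gave 1 and 1. The table's 9630033F20Rik, which RefSeq names Tigar, lowers the level of a glycolytic activator and was higher in both, at 0.71 (SE 0.11, adjusted p = 0.000769) and 0.71 (SE 0.09, adjusted p = 0.000164). Ddit4, an inhibitor of mTORC1, was lower in both, at -0.77 (SE 0.12, adjusted p = 0.00107) and -0.48 (SE 0.10, adjusted p = 0.00363). Sesn2, a relative of Sesn1, changed by -0.25 (SE 0.09, adjusted p = 0.0597) and -0.36 (SE 0.08, adjusted p = 0.00405), and Aldh4a1, of proline breakdown, by -0.28 (SE 0.15, adjusted p = 0.176) and -0.58 (SE 0.13, adjusted p = 0.00449). In SirT7-/- cells neither was called, but edgeR called both without WT-NT 4 as well, at -0.25 (adjusted p = 0.044) and -0.28 (adjusted p = 0.0435). With all libraries the wild-type calls of Ddit4 (adjusted p = 0.0622) and Aldh4a1 (adjusted p = 0.0536) were lost.

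Secreted and membrane targets gave 1 higher and 1 lower of 10 in SirT7-/- cells and 2 higher and 1 lower in wild-type cells. With all libraries none was called in wild-type cells, at an adjusted p of 0.0623 for Slc19a2, 0.105 for Notch1 and 0.207 for Gdf15. Slc19a2 was higher in both, at 0.97 and 0.72, and the receptor Notch1 lower in both, at -0.77 and -0.44. Gdf15, a stress cytokine, changed by 0.18 (SE 0.32, adjusted p = 0.695), which was not called, and 0.74 (SE 0.27, adjusted p = 0.0498), a call that was also lost without WT-NT 4, at 0.70 (adjusted p = 0.0785).

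**Figure D5:**
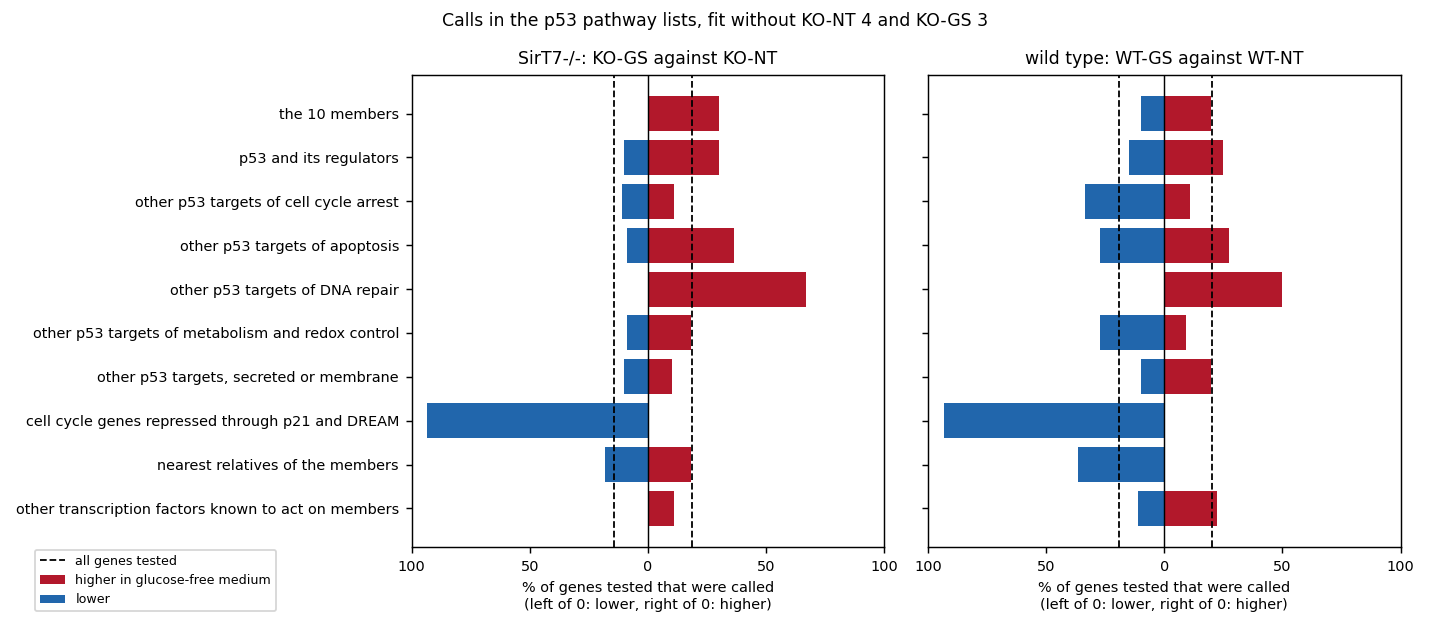
Share of the tested genes of each list that edgeR called higher (right of 0, red) or lower (left of 0, blue) in glucose-free medium, in SirT7-/- cells (left) and wild-type cells (right), without KO-NT 4 and KO-GS 3; dashed lines give the shares over all genes tested. The list of cell cycle genes has 14 of 15 called lower in both panels, and the 10 members have 3 called higher in SirT7-/- cells and 2 in wild-type cells.

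Regulators of p53 gave 6 higher and 2 lower of 20 in SirT7-/- cells and 5 higher and 3 lower in wild-type cells, where all libraries gave 5 and 2. Sirt1, a sirtuin that deacetylates p53, changed by 0.63 (SE 0.09, adjusted p = 0.000663) and 0.71 (SE 0.08, adjusted p = 6.36e-05). Atr, a kinase of the replication checkpoint, changed by 0.67 and 0.68, and Rchy1, another ligase for p53, by 0.68 and 0.53. Npm1, a nucleolar chaperone that binds Mdm2, changed by 0.88 and 0.92, but it has many pseudogene copies among which its reads could be divided.

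Of 12 near relatives of the members, 11 were tested and Phlda2 was not. In SirT7-/- cells 2 were higher and 2 lower, and in wild-type cells 0 were higher and 4 lower, where all libraries gave 0 and 2. The 2 higher, named after their values were seen, were Ccng2, a relative of Ccng1, at 0.74 (SE 0.24, adjusted p = 0.0377), and Pmaip1, which like Bbc3 triggers apoptosis, at 1.66 (SE 0.42, adjusted p = 0.0124). In wild-type cells they had 0.19 (SE 0.21, adjusted p = 0.473) and 0.88 (SE 0.35, adjusted p = 0.0681). Without WT-NT 4 as well, edgeR called both higher there, at 0.44 (adjusted p = 0.0153) and 1.26 (adjusted p = 0.00692). Cdkn1b, which encodes p27, a relative of p21, was lower in both, at -0.50 (SE 0.13, adjusted p = 0.0118) and -0.52 (SE 0.11, adjusted p = 0.0028). Trp53inp2 was lower in both, at -0.65 (SE 0.13, adjusted p = 0.00309) and -0.66 (SE 0.10, adjusted p = 0.000675), while its relative Trp53inp1 had positive changes; its wild-type call was lost with all libraries (adjusted p = 0.0687). Sesn3 changed by -0.37 (SE 0.34, adjusted p = 0.424), which was not called, and -0.94 (SE 0.29, adjusted p = 0.0233), a call lost with all libraries (adjusted p = 0.0892).

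Other transcription factors known to act on members were 10, of which 9 were tested and Trp73 was not. In SirT7-/- cells 1 was higher and 0 lower, and in wild-type cells 2 were higher and 1 lower, where all libraries gave 2 and 0. Ddit3, a factor of the stress response of the endoplasmic reticulum, had the largest change, at 2.71 (SE 0.22, adjusted p = 3.24e-05) and 2.51 (SE 0.19, adjusted p = 8.98e-06), with 492 ± 89.6 CPM in WT-GS and 90.3 ± 14.1 CPM in WT-NT (SD, n = 3 and 4). Atf3 changed by 0.78 (SE 0.35, adjusted p = 0.112), which was not called, and 1.71 (SE 0.30, adjusted p = 0.0012). Without WT-NT 4 as well, edgeR called Atf3 in SirT7-/- cells, at 0.78 (adjusted p = 0.0487). Atf4 changed by 0.21 (SE 0.15, adjusted p = 0.326) and 0.31 (SE 0.13, adjusted p = 0.0753), neither called. Trp63, a relative of Trp53, was called lower in wild-type cells but was at 0 in WT-GS and averaged 0.163 CPM in WT-NT, so no fold is given; the call was lost with all libraries (adjusted p = 0.0542).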

How the data were processed

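Total RNA of 14 libraries was prepared with a TruSeq RNA kit (v2), per the labels' protocols. Per the submitters' processing notes, FastQC 0.11.3, Trimmomatic 0.36, HISAT2 2.1.0, SAMtools, StringTie 1.3.3 and DESeq2 1.18.1 were used on build mm9; the annotation and strand setting are not given in the sources used here. The table, as deposited by the authors, holds the estimated counts of StringTie as whole numbers for 24015 symbols, 27 of them dates, with 4225 at 0 in every library. Counts were used as deposited. The edgeR 4.0.16 quasi-likelihood F-test (R 4.3.3, robust, TMM, filterByExpr with minimum count 10 and minimum total 15) was fitted to all 14 libraries, with 1 mean per group, for 5 comparisons. Further fits dropped KO-NT 4 with KO-GS 3, and then WT-NT 4 too. Standard errors were worked back from the F-test and share the spread of all groups. DESeq2 1.42.0 was an alternative, and the others were RLE scaling, library size alone, no filter, only the groups compared, replicate blocks and each library left out. The analysis was tested on simulated data. Members, lists and the 3 omitted libraries were chosen with earlier results of these data known. Members and Trp53, Mdm4 and Sirt7 are named throughout, with up to 4 genes per list by smallest p in wild type without KO-NT 4 and KO-GS 3; a gene that this rule names among the secreted and membrane targets is not reported here. A count of 0 was given a limit of 3 counts. Counting limits cover counting error only. Promoter sequences come from RefSeq on GRCm38.p6 and were not placed on mm9. Overlapping genes come from GENCODE M21.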

Additional observations from a re-analysis of the deposited data

Results flagged for a closer look

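In groups of 4 libraries, 7 values stood farther from their nearest neighbour than Dixon's 95% critical value allows, out of 26 groups of values examined. Chance alone marks about 1 in 20 of independent groups. These groups were KO-NT and WT-NT read in different genes, so they are not independent. The number of flagged values cannot be set against that rate. Of the 7 flagged values, 4 were in KO-NT 4, which lies with the starved libraries. There Mdm2 had 283 CPM, where the next KO-NT library had 139 CPM. Trp53inp1 had 147 CPM in KO-NT 4, where the next had 76.8 CPM. Perp had 15.4 CPM in KO-NT 4, where the next had 2.56 CPM. Trp53 had 137 CPM in KO-NT 4, where the next had 117 CPM. The other 3 were in WT-NT 4, whose Hspa5 and Txnip levels were those of normal medium. There Cdkn1a had 483 CPM, where the next WT-NT library had 269 CPM. Trp53inp1 had 259 CPM in WT-NT 4, where the next had 90.9 CPM, and Perp had 17.6 CPM, where the next had 2.83 CPM. What sets these libraries apart was not tested.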

How the results depend on the processing

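Of the members' log2 changes recomputed under an alternative, 1654 kept their side of the threshold and moved little, 49 moved by more than an SE, 46 became called and 31 lost their call, and none turned the direction of a called value. With all libraries, the 2 members called in wild-type cells became 5 with a replicate block (42.3% of all genes called) and 0 to 6 with 1 library left out (0% to 36.0%): 0 without WT-NT 3, WT-GS 1, WT-GS 2 or WT-GS 3, 1 without WT-NT 1 or WT-NT 2, and 6 without WT-NT 4. The 0 called in SirT7-/- cells became 3 without KO-NT 4 and KO-GS 3 (33.1% of all genes), 6 with a replicate block (19.8%), and 0 to 6 with 1 library left out, 6 without KO-NT 4 (21.1%). Without these 2 libraries, the 3 called in wild-type cells became 7 with a replicate block (45.3%) and 2 to 7 with 1 more left out (28.9% to 47.3%), 7 without WT-NT 4. The 3 called in SirT7-/- cells became 5 with DESeq2 (37.6%; 4 higher, and Bbc3 lower), 6 with a replicate block (35.4%), 6 with only the groups compared (39.7%), and 1 to 6 with 1 more left out (21.4% to 39.9%), 1 without KO-GS 2 and 6 without WT-NT 4. Whether replicate numbers pair the libraries was not settled: 9 of 19 same-number pairs correlated above 0.1, in a range of -0.116 to 0.458. Of 38 matches, 17 were best with their own number, and the count that chance would give was not worked out. With a replicate block over all 14 libraries the SE of Mdm2 in wild-type cells was 0.117, against 0.273 without the block. Where KO-GS was left with 1 library, it was assumed to vary like the other groups. RLE scaling, library size alone and no filter changed no count of members called by over 1.5 times. The cause of these shifts was not tested.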
